A study of Mus musculus with 16 samples.

Results

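The Atm genotype was compared in mouse cerebellum over both treatments of the study, with all 16 arrays of the series, 8 from Atm-/- mice and 8 from WT mice. Atm-/- mice carried the altered Atm allele on both chromosomes, on the mixed strain given as B6;129S4-Atmtm1Bal/J, and WT mice were their littermates. Within each genotype, 4 mice drank plain water (veh) and 4 drank water that held the NAD+ precursor nicotinamide riboside (NR) at 3.5 mg/ml, or 12 mM, from 6 weeks of age for 2 months. The labels give every mouse as male, 3.5 months old, with 1 mouse per array, and genotype and treatment together make 4 groups of 4 arrays. RNA of the cerebellar cortex was labelled with 1 dye and hybridised to Agilent arrays, where a brighter spot means that more RNA was bound to that probe.

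ATM is a protein kinase that is switched on by breaks in both strands of DNA and signals to p53, CHK2 and many repair proteins. Loss of ATM in people causes ataxia telangiectasia, in which Purkinje and granule neurons of the cerebellum are lost. Atm-/- mice keep most of these neurons, although the study counted significantly fewer Purkinje cells in its Atm-/- mice than in WT mice. As background, an allele made by gene targeting is bred together with the DNA that surrounds it on its chromosome. Genes around Atm are therefore described apart from genes elsewhere, and the strain origin of the DNA in these mice was not analysed here.

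One slide carried the 8 WT arrays, a different slide carried the 8 Atm-/- arrays, and each slide was scanned on its own. Genotype, slide and scan therefore cannot be told apart in any difference given here. Probes well above background, as the scanner software judged it, numbered 36402 to 42559 on WT arrays (38765.9 ± 1837.5, SD, n = 8) and 34945 to 41905 on Atm-/- arrays (38494.2 ± 2858.3, SD, n = 8). The difference of -271.6 probes was within the spread between arrays (exact permutation test within treatment, two-sided, p = 0.763, where 4.1e-04 is the smallest p that 4900 arrangements allow). It averages over both treatments and does not describe each on its own. Within veh the counts ran from 37843 to 42559 in WT and from 39134 to 41905 in Atm-/-. Within NR they ran from 36402 to 40010 and from 34945 to 37817, so all Atm-/- veh arrays lay above all Atm-/- NR arrays. On both slides the veh arrays lay in row 1 and the NR arrays in row 2, so treatment and row cannot be told apart. No spot was saturated, and the number of arrays limits the precision.

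Markers of the cerebellum were present: 27 of 27 measured Purkinje cell genes, 20 of 20 granule cell genes and 20 of 20 Bergmann glia and astrocyte genes were above background on all 16 arrays. On 4 arrays, WT NR 1 and 4 for WT, and veh 3 and NR 4 for Atm-/-, the female-specific RNA Xist had a log2 signal between 6.68 and 7.80, against 2.25 to 3.34 on the other 12, and the Y-linked gene Eif2s3y was between 2.34 and 2.66, against 11.21 to 11.85. These 4 arrays go against the labelled sex and lie 2 in each genotype. On Atm-/- veh 3 the mean level of 33 interferon-stimulated genes was 1.31 on the log2 scale above each gene's mean, against 0.04 or less on the other 7 Atm-/- arrays. On WT veh 4 the choroid plexus gene Ttr, which codes for transthyretin, reached a log2 signal of 18.05, against 12.62 or less on the other WT arrays.

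Over both treatments, 82 of 37253 probes (0.220%) differed between Atm-/- and WT at an adjusted p under 0.05, 45 of them (0.121%) higher in Atm-/- and 37 (0.0993%) lower. The differences were fitted with limma, genotype and treatment as terms, with Benjamini-Hochberg adjustment over all probes, and a probe or gene that passed is said to be called. The called probes fall into 34 of genes within 20 Mb of Atm on its chromosome, 16 of genes on other chromosomes and 32 without a gene name. The arrays of both genotypes did not overlap for 52 of the 82, and over all probes 91 (0.244%) had no overlap of 8 arrays against 8. At an unadjusted p under 0.05, 4716 probes (12.7%) differed. The balance of directions depended on single arrays. Without WT NR 2 19 probes were called higher and 32 lower, without WT veh 2 20 and 32, without Atm-/- NR 4 21 and 33, without WT veh 4 29 and 40, and without Atm-/- veh 3 29 and 42. On the 12 arrays with Y-linked signal 17 were higher and 25 lower. With any 1 array left out, between 19 and 61 were higher and between 30 and 49 lower. Without WT veh 4 and Atm-/- veh 3 together, an alternative added once the values were known, 31 were higher and 39 lower.

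The altered gene itself was measured by 2 probes. On the dimmer one, the log2 signal was lowest at 8.52, median 8.65 and highest at 9.03 in WT, and lowest at 7.72, median 7.90 and highest at 8.08 in Atm-/-. Every Atm-/- array was below every WT array, with a difference of -0.82 on the log2 scale (standard error 0.06, limma adjusted p = 3.2e-06, between 1.7e-06 and 0.00152 over the alternatives run). The brighter probe ran from 8.88 to 9.27 in WT and from 8.61 to 9.23 in Atm-/-, where the arrays overlapped (difference -0.23, standard error 0.08, limma adjusted p = 0.272). On that probe Atm-/- NR 2, at 9.23, was apart from the other 7 Atm-/- arrays, which reached 8.82. Where both probes lie relative to the altered part of Atm was not analysed here, so that neither tests the labels on its own.

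**Figure D1:**
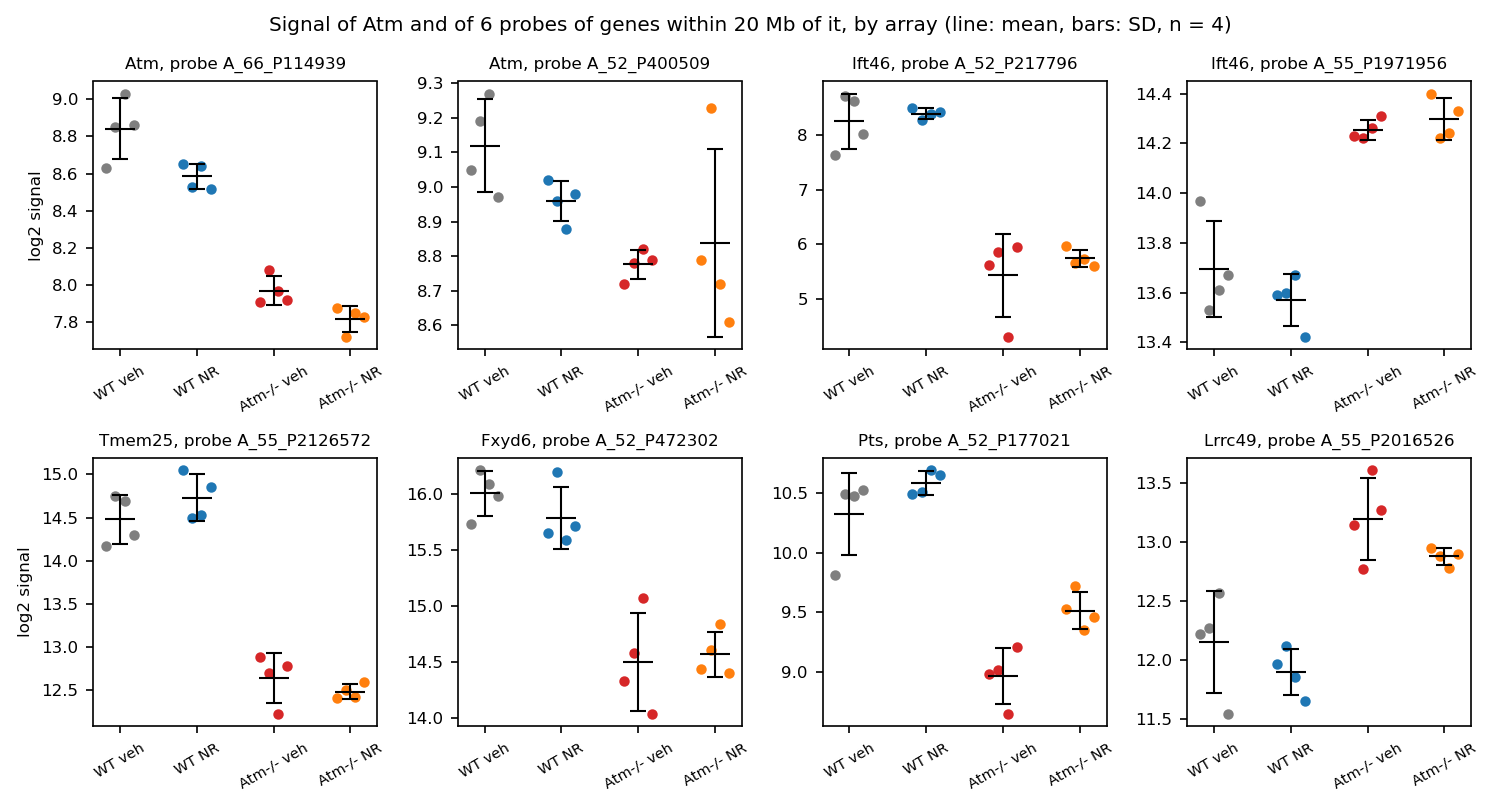
Log2 signal (vertical axis, scaled to each panel) on every array for both Atm probes and 6 probes of genes within 20 Mb of Atm. Points are arrays, the horizontal line is the mean and the bars the SD of 4 arrays in each of the 4 groups. On the dimmer Atm probe the Atm-/- arrays sit between 7.72 and 8.08 and the WT arrays between 8.52 and 9.03, and 1 Ift46 probe is lower in Atm-/- while another is higher.

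The sequences that lie just before the start of Atm and of Ift46 and Tmem25, which are next to each other on the chromosome and include the largest fall among called probes with a gene name, are shown to give the DNA context of these genes. Each is the 250 bases upstream of the start in RefSeq (GRCm38.p6, 5′ to 3′ on the gene's strand), and capitals mark matches on either strand to GGGCGG or CCAAT, which do not overlap here.
Atm: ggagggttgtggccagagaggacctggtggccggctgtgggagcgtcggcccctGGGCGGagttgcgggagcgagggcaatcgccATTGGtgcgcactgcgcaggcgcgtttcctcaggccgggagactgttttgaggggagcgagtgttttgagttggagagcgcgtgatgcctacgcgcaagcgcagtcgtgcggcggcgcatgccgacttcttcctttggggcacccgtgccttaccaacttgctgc
Ift46: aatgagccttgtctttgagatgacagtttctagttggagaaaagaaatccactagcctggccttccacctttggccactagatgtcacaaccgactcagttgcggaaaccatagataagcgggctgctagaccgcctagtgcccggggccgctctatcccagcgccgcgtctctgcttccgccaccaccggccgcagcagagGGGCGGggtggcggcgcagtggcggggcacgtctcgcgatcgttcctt
Tmem25: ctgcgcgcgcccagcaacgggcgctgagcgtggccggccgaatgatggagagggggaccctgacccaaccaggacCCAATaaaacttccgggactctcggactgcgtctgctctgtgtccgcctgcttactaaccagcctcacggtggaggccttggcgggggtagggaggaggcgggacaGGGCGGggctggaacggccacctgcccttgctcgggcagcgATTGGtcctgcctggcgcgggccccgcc
They lie at chr9:53536672-53536921 on the minus strand, chr9:44772759-44773008 on the plus strand and chr9:44799248-44799497 on the minus strand. The 3 windows have a G and C content of 66.0%, 60.4% and 69.6%. GGGCGG was found once in each window, CCAAT once for Atm, 2 times for Tmem25 and not for Ift46, and TATAAA in none of the 3. Of all 32851 RefSeq windows of this length, 32.7% hold GGGCGG, 33.8% CCAAT and 12.4% TATAAA on either strand. Of the 30 called genes within 20 Mb of Atm, 27 had 35 windows, of which 42.9% held GGGCGG, 42.9% CCAAT and 7 TATAAA. These letter matches are a description and were not tested.

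The share of measured genes that were called was highest close to Atm. Within 5 Mb of Atm, 19 of 116 measured genes (16.4%) were called on at least 1 probe, and between 5 and 10 Mb 10 of 95 (10.5%). Between 10 and 20 Mb 1 of 158 (0.633%) was called, 1700063D05Rik. Between 20 and 40 Mb limma called 0 of 231 genes, where 24 (10.4%) had an unadjusted p under 0.05 on the brightest probe, and 0 of 343 farther away on the same chromosome, where 29 (8.45%) did. By the same measure 37 genes (31.9%) passed within 5 Mb and 38 of 95 between 5 and 10 Mb, against 12.5% on other chromosomes. Within 20 Mb this gives 30 of 369 genes (8.13%), against 16 of 16368 other genes (0.0978%) and 46 of 16737 overall (0.275%). Within 20 Mb 10 of the called genes had a probe that was higher in Atm-/- and 21 a probe that was lower, Ift46 being in both counts, while elsewhere 13 were higher and 3 lower. When each array was left out in turn, between 25 and 34 genes were called within 20 Mb.

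**Figure D2:**
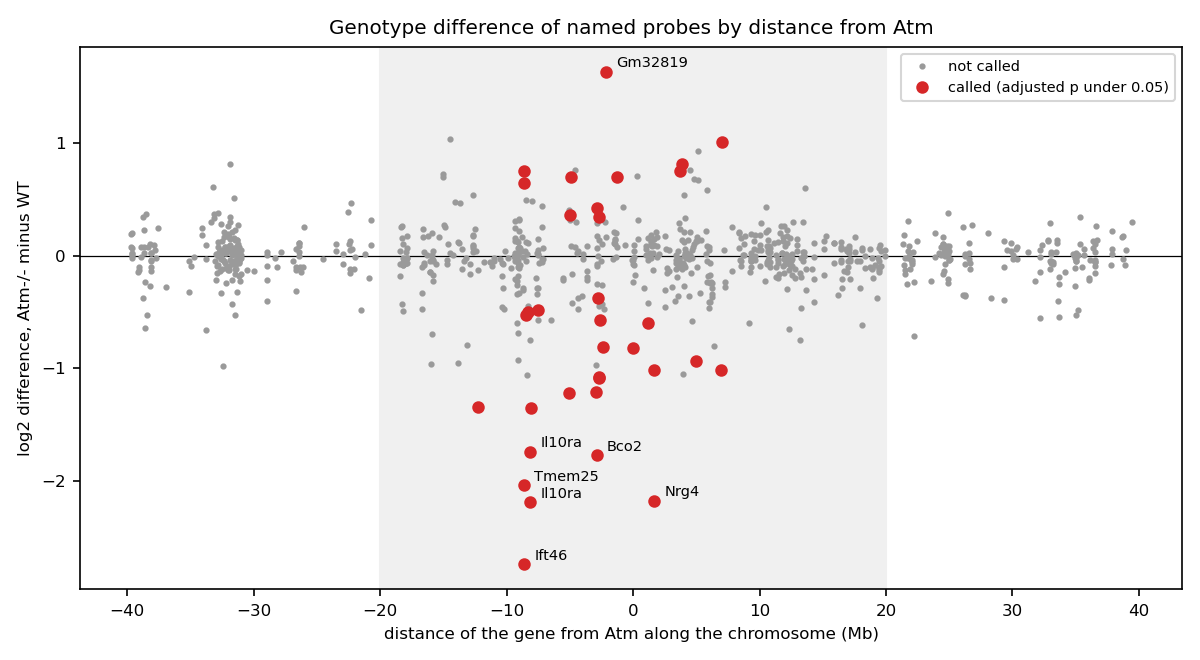
Log2 difference between Atm-/- and WT (vertical axis) of each named probe within 40 Mb of Atm against the distance of its gene from Atm along the chromosome in Mb (horizontal axis, Atm at 0). Red points passed an adjusted p under 0.05, grey points did not, and the shaded band is 20 Mb to each side. All red points lie in the band, where 34 probes of 30 genes were called.

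Genes that fell near Atm are described first, those for membrane proteins and ligands before enzymes and chaperones, an order that claims no shared role. Tmem25, a membrane protein of the immunoglobulin superfamily, had a log2 signal of 14.17 at the lowest, 14.61 at the median and 15.05 at the highest in WT, and of 12.22, 12.54 and 12.88 in Atm-/-. The genotypes were apart on every array, by -2.04 on the log2 scale (standard error 0.13, limma adjusted p = 7.5e-07), or 4.12-fold. The fall was -1.84 within veh (limma adjusted p = 2.7e-04) and -2.25 within NR (3.3e-05).

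Il10ra, the chain of the interleukin-10 receptor that binds the ligand, fell on both of its called probes. On the brighter probe WT arrays lay at 8.66, 9.28 and 9.58 (lowest, median, highest log2 signal) and Atm-/- arrays at 6.98, 7.41 and 8.27, with no overlap (difference -1.74, standard error 0.15, limma adjusted p = 4.1e-05). On the dimmer probe the difference was -2.19 (standard error 0.30, limma adjusted p = 0.00346), and only 3 of 8 Atm-/- arrays were well above background against 8 of 8 WT arrays. Nrg4, a neuregulin that activates the ErbB4 receptor, fell by 2.18 on 1 probe (limma adjusted p = 6.3e-04) and by 1.02 on another (0.00631), with no overlap on either, but only 3 of 8 and 6 of 8 Atm-/- arrays were well above background on these dim probes.

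Fxyd6, a small membrane protein that modulates the Na,K-ATPase, was at 15.59, 15.85 and 16.21 in WT (lowest, median, highest log2 signal) and at 14.04, 14.51 and 15.07 in Atm-/-. The arrays did not overlap (difference -1.36, standard error 0.14, limma adjusted p = 2.3e-04). Cd276, an immune checkpoint molecule of the B7 family, fell by 0.93 (limma adjusted p = 4.6e-04), and Layn, a receptor for hyaluronan, fell by 0.81 (0.00346), both without overlap. Scn4b, the beta 4 subunit of voltage-gated sodium channels that is used by Purkinje cells, was at 13.55, 13.90 and 14.34 in WT and at 13.17, 13.44 and 13.61 in Atm-/-, where the ranges met (difference -0.50, standard error 0.09, limma adjusted p = 0.0454). Its call was kept in 2 of the 16 fits with 1 array left out, and the adjusted p rose to 0.113 without Atm-/- NR 4.

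Pts, which makes a step of the synthesis of tetrahydrobiopterin, the cofactor of tyrosine and tryptophan hydroxylases, was at 9.81, 10.50 and 10.69 in WT and at 8.65, 9.28 and 9.72 in Atm-/-. No array overlapped, and WT veh 1 was the lowest WT array, the next being at 10.47 (difference -1.21, standard error 0.11, limma adjusted p = 7.4e-05). Bco2, a mitochondrial enzyme that cleaves carotenoids, fell by 1.77 (standard error 0.19, limma adjusted p = 3.5e-04), and 6 of 8 Atm-/- arrays were well above background.

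Cryab, the small heat shock protein alpha B-crystallin, was at 14.04, 14.45 and 15.13 in WT and at 12.86, 13.44 and 13.64 in Atm-/-, without overlap (difference -1.09, standard error 0.13, limma adjusted p = 0.00103). Dnaja4, a co-chaperone of Hsp70, fell by 0.60 (0.00207), Alg9, a mannosyltransferase of N-glycan synthesis, by 0.57 (0.00188), Ube4a, a ubiquitin ligase, by 0.53 (0.00631) and Dlat, the acetyltransferase of the pyruvate dehydrogenase complex, by 0.38 (0.0215), each with its limma adjusted p. A dimmer Dlat probe differed by 0.00 (limma adjusted p = 1.0). Rnf214 fell by 0.48 on the called probe (0.0108) and differed by 0.05 on a brighter one (limma adjusted p = 0.76), so its probes disagree. Genes with little known function that fell were 1700063D05Rik (-1.35), Nxpe4 (-1.22), 2310030G06Rik (-1.08) and 9230112J17Rik (-1.02), with limma adjusted p between 2.0e-04 and 0.00631. The spans of 2310030G06Rik and Cryab overlap in RefSeq.

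Ift46, a subunit of the intraflagellar transport complex that builds cilia, was called in both directions. Its dimmest probe was at 7.64, 8.41 and 8.71 in WT and at 4.29, 5.69 and 5.96 in Atm-/-, without overlap (difference -2.75, standard error 0.21, limma adjusted p = 8.2e-06). Its brightest probe was at 13.42, 13.61 and 13.97 in WT and at 14.22, 14.25 and 14.40 in Atm-/-, also without overlap and in the opposite direction (0.64, standard error 0.07, limma adjusted p = 2.3e-04). The remaining probe rose by 0.75 (0.00131), where WT veh 1, at 10.96, overlapped the Atm-/- arrays. All 3 Ift46 probes were well above background on 16 of 16 arrays, and which part of the transcript each one binds was not analysed here.

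Higher near Atm were Lrrc49, a subunit of the complex that adds glutamate chains to tubulin, Ppcdc, an enzyme of coenzyme A synthesis, and Zc3h12c, a CCCH zinc finger protein. Lrrc49 was at 11.54, 12.04 and 12.57 in WT and at 12.77, 12.92 and 13.61 in Atm-/-, without overlap (difference 1.02, standard error 0.14, limma adjusted p = 0.00294). The study itself lists Lrrc49, Tmem25, Pts, Fxyd6, Cryab, Nxpe4, Dnaja4, 2310030G06Rik, D830030K20Rik, Gm32819, Gm5617 and 1700017B05Rik from these same arrays, so their differences here are no independent evidence. Ppcdc rose by 0.82 (limma adjusted p = 6.3e-04) and Zc3h12c by 0.70 on the called probe (2.9e-04), while another Zc3h12c probe differed by 0.08 (limma adjusted p = 0.802).

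Gm32819 had the largest rise near Atm, 1.64 (standard error 0.30, limma adjusted p = 0.0399). It was called in 3 of the 16 fits with 1 array left out, and the adjusted p reached 0.102 without Atm-/- NR 4. Further rises were 1700017B05Rik (0.75), Gm5617 (0.71), Nkapd1 (0.42), the mitochondrial oligoribonuclease Rexo2 (0.36) and 1110032A03Rik (0.35), with limma adjusted p between 0.00259 and 0.0440. With 1 array left out, Rexo2 was called in 2 of 16 fits (adjusted p up to 0.106) and 1110032A03Rik in 5 of 16 (up to 0.0851). Dlat, among the falls, was called in 10 of 16 (up to 0.0624).

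The called genes near Atm were often neighbours. In the stretch from Ift46 to Rnf214, 7 of 19 measured genes were called, of which Tmem25, Ube4a, Scn4b, Il10ra, Fxyd6 and Rnf214 were lower. In the stretch from Pts to Alg9, 8 of 15 were called, with Pts, Bco2, Dlat, 2310030G06Rik, Cryab and Alg9 lower and Nkapd1 and 1110032A03Rik higher between them. Hspb2, Il18, Sdhd, Timm8b, Dixdc1, Pih1d2 and Fdxacb1 in the same stretch were not called. The ends of both stretches were chosen after the calls were seen, so these counts are a description.

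Genes on other chromosomes made up 16 called probes of 16 genes, with a median size of 0.53 on the log2 scale against 0.88 for the 34 probes near Atm. Of these 16, 5 kept their call in each of the 16 fits with 1 array left out (Olfr368, Btnl2, Vmn2r4, Olfr522 and Cyp4a31), against 29 of the 34 near Atm. Hrh4 was called in 15 of those fits, Fstl5 in 14, Rbm3os in 12, Rps23rg1 in 9, Gm19668 and Gm10845 in 8, Nid1 in 7, D830030K20Rik in 6, Lin28a and Tsku in 3 and Ikzf3 in 1. The number of called genes elsewhere was 26 without WT veh 1, 8 without WT veh 3, WT NR 2 or Atm-/- NR 2, 9 without WT veh 2 or Atm-/- NR 4 and 10 without WT NR 3 or Atm-/- veh 1. It was 7 on the 12 arrays with Y-linked signal.

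Of the 16 called genes elsewhere, 13 were higher in Atm-/-. Btnl2, a butyrophilin-like protein that acts on T cells, was at 5.72, 6.16 and 6.77 in WT and at 6.88, 7.23 and 7.65 in Atm-/-, without overlap (2.0-fold, standard error 0.14 on the log2 scale, limma adjusted p = 0.00523). A dimmer Btnl2 probe differed by 0.69 (limma adjusted p = 0.443). The olfactory receptor Olfr368 rose by 1.06 (0.00416), where 2 of 8 WT and 7 of 8 Atm-/- arrays were well above background, and Olfr522 by 0.64 (0.00607), with 6 of 8 and 7 of 8.

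Vmn2r4, a vomeronasal receptor, was at 5.64, 6.12 and 6.22 in WT and at 6.39, 6.88 and 6.97 in Atm-/-, without overlap (difference 0.75, standard error 0.10, limma adjusted p = 0.00207). Olfactory and vomeronasal receptor genes belong to large families of similar sequence, so that their probes may bind related transcripts. The histamine receptor Hrh4 rose by 0.58 (limma adjusted p = 0.0193), Ikzf3, a transcription factor of lymphocytes, by 0.54 (0.0474), the let-7 binding protein Lin28a by 0.53 (0.0454) and the cytochrome P450 Cyp4a31 by 0.47 (0.0143). A brighter Ikzf3 probe differed by 0.05 (limma adjusted p = 0.889).

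D830030K20Rik rose by 0.56 (limma adjusted p = 0.0266) on its brighter probe and differed by -0.02 on another (0.953), and Rps23rg1, a copy of the ribosomal protein gene Rps23, rose by 0.44 (0.0230) on 1 probe and differed by 0.01 on another (0.98). Gm10845 rose by 0.41 (limma adjusted p = 0.0266) on its called probe and differed by -0.09 on a brighter one (0.497). Lower were Rbm3os, the antisense RNA of Rbm3 (-0.59, limma adjusted p = 0.0211), the secreted glycoprotein Fstl5 (-0.38, 0.0196) and Nid1, nidogen 1 of basement membranes (-0.30, 0.0269). Other Fstl5 probes differed by -0.23 (limma adjusted p = 0.242) and -0.24 (0.37) and were not called. Nid1 ran from 10.71 to 10.90 in WT and from 10.37 to 10.66 in Atm-/-, without overlap. No probe of these 16 genes was called within veh or within NR alone.

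Of 32 called probes without a gene name, 21 were higher and 11 lower. Their accessions, of which 10 are Ensembl transcripts, did not match exactly 1 RefSeq gene. Most therefore have no distance from Atm here, and some may lie near it. The largest differences of all were among these unnamed probes. The probe of ENSMUST00000150060 was at 9.27, 9.52 and 10.32 in WT and at 2.94, 4.32 and 4.98 in Atm-/-, where 2 of 8 arrays were well above background, and the fitted difference was -5.51 (standard error 0.25, limma adjusted p = 2.7e-08). The probe of ENSMUST00000117093 fell by 4.44 (3.0e-07), with 4 of 8 Atm-/- arrays above background, and that of AK084979 rose by 2.51 (0.0187), with 2 of 8 WT arrays above background. For 6 of the unnamed probes the array design gives a position in mm9. Of these, the probe at chr3:125563727-125564266 on the plus strand was lower by -1.41 (limma adjusted p = 0.00774) and the probe at chr2:71576218-71603818 on the plus strand higher by 0.70 (0.00855). What is annotated at these positions was not analysed here.

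The genotype difference was also taken within each treatment, both from the same fit of the 4 group means to all 16 arrays. Each difference rests on the arrays of its own treatment, while the residual spread is pooled over all 16. Within veh 20 probes (0.0537%) were called, 2 higher and 18 lower, and within NR 20 (0.0537%), 4 higher and 16 lower. Of the 82 probes called over both, 13 were called in both treatments, 6 more in veh, 6 more in NR and 57 in neither. All 82 had the same sign in veh and in NR, which the call over both treatments partly fixes. Across the 542 probes of genes within 20 Mb of Atm, the differences in veh and NR correlated with r = 0.563, against 0.165 over the other 23809 named probes. The values share slide and genotype as well as probe, and probes are not independent replicates, so r is a description. Limma called 0 probes (0.00%) for a difference between the genotype effects in NR and in veh, the smallest adjusted p being 0.839, with 1962 probes (5.27%) at an unadjusted p under 0.05. Among the 82 probes, 3 had such an unadjusted p, 1 of them Dnaja4, which differed by -0.77 within veh and -0.43 within NR.

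**Figure D3:**
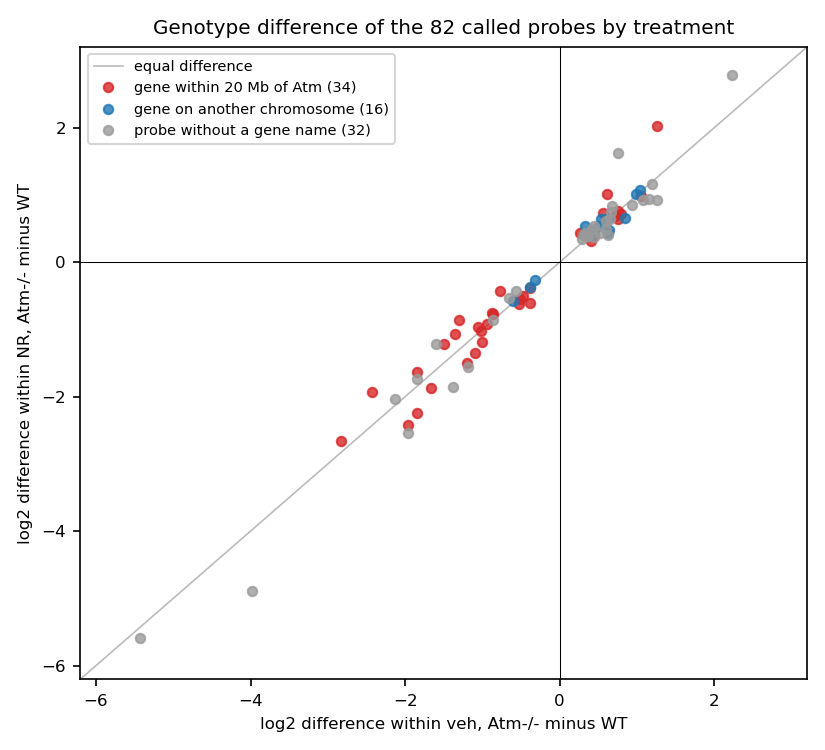
Log2 difference between Atm-/- and WT within NR (vertical axis) against the same within veh (horizontal axis) for the 82 called probes, by place of the gene. Points on the diagonal line differ equally in both treatments, and all 82 lie in the quadrants where both differences have the same sign.

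Lists of genes of pathways and cell types gave few calls. On the brightest probe of each gene, 39 of 16737 genes (0.233%) were called, and 12.7% had an unadjusted p under 0.05, with a median difference of -0.01 on the log2 scale. Of these genes 8948 were below 0 and 7789 above, which is the background for the counts by sign given below. Among 31 lists, 1 gene was called in each of 3 lists and 0 in the other 28. These were Il10ra among lymphocyte genes, Scn4b among ion channels and ataxia genes, and Lrrc49 among the 11 genes named in the study's main text. All 3 lie within 20 Mb of Atm.

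Of 43 measured genes of the DNA damage response, in which Atm acts, 0 were called by limma on the brightest probe and 7 had an unadjusted p under 0.05 (16.3%), 1 higher and 6 lower, with a median of -0.04. Prkdc, the catalytic subunit of DNA-dependent protein kinase, differed by -0.18 (limma adjusted p = 0.202) and Fanca of the Fanconi anaemia complex by 0.35 (0.241), where another Fanca probe differed by -0.32 (0.342). Of 29 targets of p53, 3 had an unadjusted p under 0.05, and Plk2 differed by -0.34 (limma adjusted p = 0.301). Of 36 excision repair genes 7 did, with Neil1, a DNA glycosylase, at 0.29 (limma adjusted p = 0.273). Neil1 lies 3.6 Mb from Atm and so belongs to the genes near Atm.

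For the senescence and innate immune lists, which bear on the study's question of STING and senescence, 1 of 21 senescence and secretory genes, 3 of 27 cGAS-STING genes and 0 of 33 interferon-stimulated genes had an unadjusted p under 0.05. Igfbp5, a secreted binding protein of insulin-like growth factors, differed by 0.36 (limma adjusted p = 0.122). The median of the interferon-stimulated genes was 0.06, and 0.21 within veh and -0.07 within NR. Their mean level ran from -0.26 to 0.26 on WT arrays and from -0.30 to 1.31 on Atm-/- arrays, the latter on Atm-/- veh 3 alone. On the same array the senescence list was at 0.75, cGAS-STING genes at 0.45 and complement genes at 0.59. The part of this array in the medians was not tested beyond leaving it out.

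Genes of the oligodendrocyte lineage, the cells that make myelin, were lower in sign without a call. All 22 measured genes of mature oligodendrocytes had a difference below 0, with a median of -0.23, and 5 of them (22.7%) an unadjusted p under 0.05. Over all named genes 8948 of 16737 were below 0. The members of a list are not independent of each other, so the counts by sign are a description. Fa2h, which hydroxylates myelin lipids, was at 12.19, 12.93 and 13.39 in WT and at 12.22, 12.49 and 12.73 in Atm-/-, where the ranges overlapped (difference -0.36, standard error 0.12, limma adjusted p = 0.239). The median was -0.07 within veh and -0.37 within NR. Of 18 genes of oligodendrocyte precursors 16 were below 0, with a median of -0.21 (-0.13 without WT veh 4). At an unadjusted p under 0.05 were 6, among them the receptor Gpr17 (-0.67, limma adjusted p = 0.222) and the proteoglycan Cspg4 (-0.40, 0.160). Cspg4 lies 3.3 Mb from Atm and so belongs to the genes near Atm. Mean levels of both lists overlapped between the genotypes, from -0.48 to 0.66 in WT and -0.30 to 0.01 in Atm-/- for mature cells. In whole tissue, fewer cells of a type and less RNA per cell cannot be told apart.

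Choroid plexus and ependyma genes had a median of -0.52, and -0.06 without WT veh 4, where their mean level was 2.61. Ttr ranged from 8.33 to 18.05 in WT and from 7.13 to 11.70 in Atm-/- (difference -2.67, standard error 1.10, limma adjusted p = 0.336). Blood genes had 7 of 7 differences above 0, with a median of 0.45, which was 0.08 without WT veh 4 and Atm-/- veh 3 together and 0.06 on the 12 arrays with Y-linked signal. Brainstem neuron genes had a median of -0.30 over 10 genes and meningeal genes of -0.17 over 15. On all 16 arrays, 13 of 15 choroid plexus, 7 of 7 blood, 15 of 15 meningeal and 8 of 10 brainstem genes were above background, and the part of these tissues in the other differences was not tested.

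Markers of the neurons of the cerebellum differed little in either direction. Purkinje genes had a median of 0.01 and granule cell genes of -0.03, with 5 of 27 and 1 of 20 at an unadjusted p under 0.05. Ppp1r17, a phosphatase inhibitor of Purkinje cells, differed by 0.35 (limma adjusted p = 0.308) and Itpr1, their inositol trisphosphate receptor, by -0.14 (0.338). Bergmann glia and astrocyte genes had a median of 0.04, with the transcription factor Sox9 at -0.53 (0.189; 0.05 on another probe) and the glutamate transporter Slc1a2 at -0.34 (0.256). Microglia genes had a median of -0.11 and 14 of 19 below 0, with the receptors Csf1r and Cx3cr1 both at -0.31 (0.376 and 0.388). Another Csf1r probe differed by 0.25 (limma adjusted p = 0.283) and another Cx3cr1 probe by -0.08 (0.90).

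Among lists of energy metabolism, 49 genes of oxidative phosphorylation had a median of 0.02, with differences from -0.08 to 0.24, and 28 genes of NAD metabolism a median of 0.02. In the latter, Kmo, a hydroxylase of the kynurenine pathway, differed by 0.50 (limma adjusted p = 0.145) and Nmnat2, an adenylyltransferase of NAD+ synthesis, by 0.31 (0.154). The 44 genes of mitophagy and autophagy had a median of 0.00. Of 24 immediate early genes 22 were below 0, with a median of -0.13, Nr4a2 at -0.44 (limma adjusted p = 0.195) and Fosl2 at -0.56 (0.302).

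**Figure D4:**
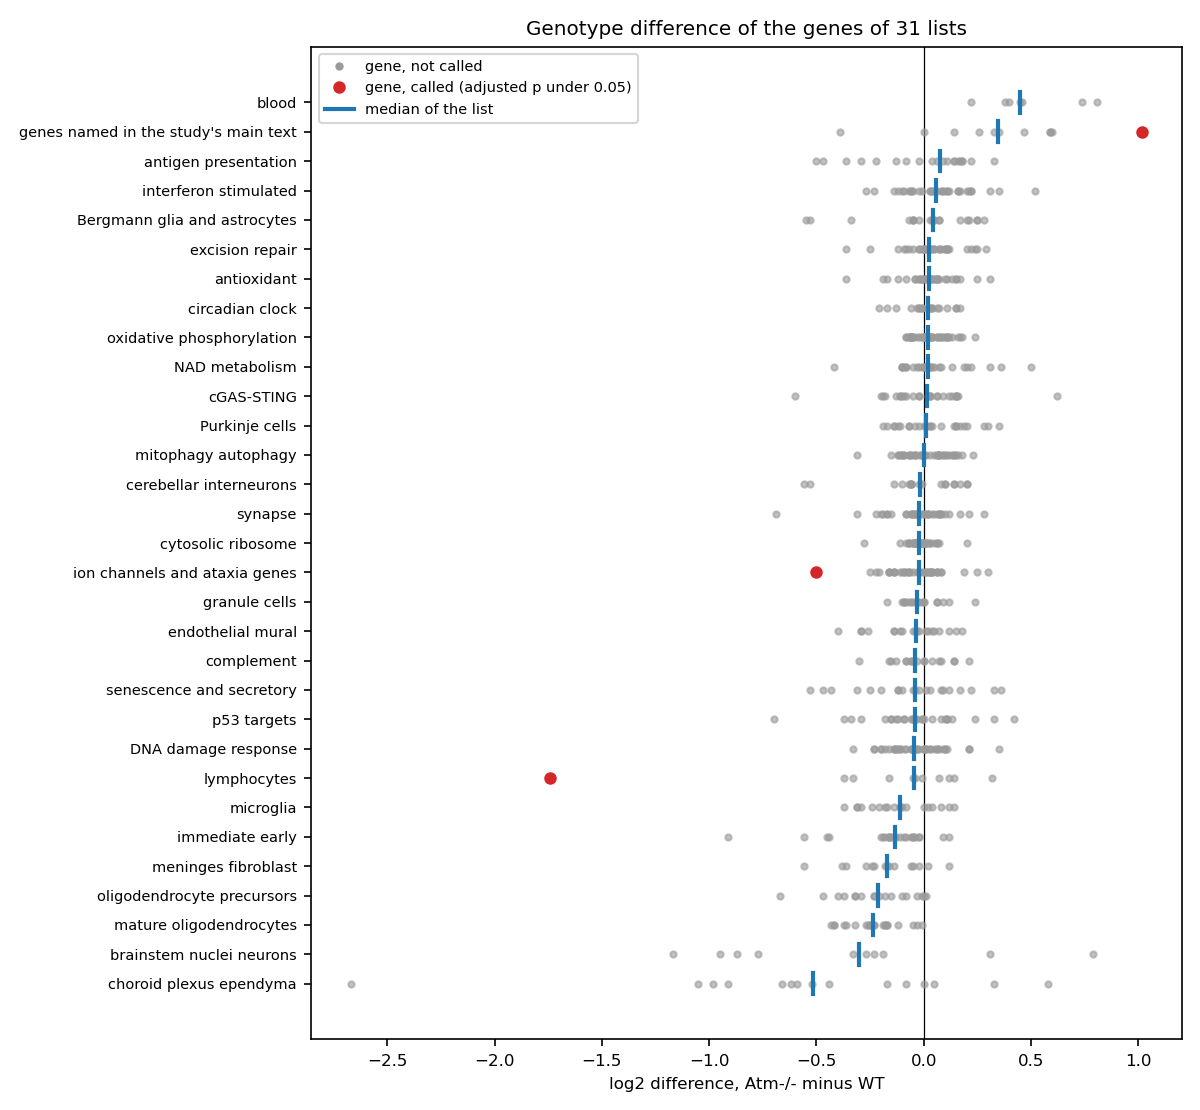
Log2 difference between Atm-/- and WT (horizontal axis) of each measured gene of 31 lists, each gene by its brightest probe. Red points passed an adjusted p under 0.05, grey points did not, and the blue bar is the median of the list. Medians run from -0.52 for choroid plexus and ependyma genes to 0.45 for blood genes, and the 3 red points are Il10ra, Scn4b and Lrrc49.

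The study's main text names 11 genes from these arrays, for contrasts of genotype or of NR, and its supplement lists many more, some of which are called here. The study named its genotype genes for Atm-/- veh against WT veh and by a rule with a z-ratio, so the values here are not the same measure. The median difference of the 11 genes was 0.681 within veh, 0.245 within NR and 0.346 over both treatments. The genotype genes were chosen on those veh arrays, which also enter the fit over both treatments. Neither the veh median nor the values over both treatments are therefore independent evidence. The medians also include the genes that the study named for NR. Of the 10 main-text genes other than Lrrc49, limma called 0 over both treatments and 4 had an unadjusted p under 0.05. The motility receptor Hmmr differed by 0.60 (limma adjusted p = 0.294), Spaca6 by 0.59 (0.165), Cyp2t4 by 0.59 (0.276), the membrane protease St14 by 0.47 (0.195), Cd209d by 0.35 (0.438) and Pign by 0.33 (0.586). The 3 Pign probes disagreed in sign, at 0.33, -0.15 and -0.57. Dzip1 differed by 0.00 (0.99) on its brightest probe. Pstpip2, Adgrg3 and Atp6v1g3, which the text names for NR against veh in WT and not for genotype, differed by -0.39 (0.441), 0.26 (0.626) and 0.14 (0.737). The arrays of both genotypes overlapped for all 10. Another Dzip1 probe differed by 0.78 (limma adjusted p = 0.135).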

How the data were processed

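The deposited scanner intensity of each spot came from Agilent Feature Extraction 12.0.3.1, which had subtracted the background, on a 1-colour array designed on mm9. The authors also deposited score values, z-scores of quantile normalised signal, which served as an alternative here. Of 62976 spots, 3671 control spots and 2851 outlier spots were left out, and the spots of each of 56605 probes were averaged. Signals were quantile normalised on the log2 scale. A probe was kept where it was well above background, on at least 0.5 of its spots, on all 4 arrays of 1 or more groups (37253 probes, 65.8%). A further 788 probes met this but had no value on at least 1 array and were left out. A probe was given a gene name where its accession matched exactly 1 gene in RefSeq, which held for 58.3% of probes.

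Genotype and treatment were fitted additively in limma 3.58.1 (R 4.3.3, 13 residual degrees of freedom). On simulated data, 162 of 200 probes with a log2 change of 1 were recovered and 14 unchanged probes were called. Text names every Atm probe, the 12 largest called rises and falls, the 10 largest outside 20 Mb, called list genes and the 2 list genes with the smallest p, and the 11 genes named in the study's main text. Further genes were named after their values were seen: the other called genes near Atm and the probes without a gene name. A list counts each gene by its probe with the highest mean signal. Members and lists were chosen with earlier results of these data known. The labels give 4 biological replicates per group, 1 mouse each. Distances use RefSeq gene positions. Alternatives covered normalisation, background, filters, weights, the replicate block and each array left out.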

Additional observations from a re-analysis of the deposited data

Results flagged for a closer look

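In 33 of 270 groups of 8 arrays, 1 array was far from the others, by its gap relative to the group's range (Dixon's criterion), where chance gives about 1 in 20. Values are log2 signals, with the nearest array of the genotype in parentheses where given. On WT veh 1, Gm32819 was 9.51 (8.34), the rising Ift46 probes 10.96 (10.53) and 13.97 (13.67), Gm5617 11.99 (11.51), Il10ra 8.66 (9.15), Pts 9.81 (10.47) and 2310030G06Rik 8.32 (9.03). In 7 of 7 cases this moved WT veh 1 toward the Atm-/- arrays. All are probes of genes within 20 Mb of Atm that were called for genotype, and Ift46 counts with both rising probes. The cases are therefore not independent of each other. On Atm-/- veh 3, the falling Ift46 probe was 4.29 and Cryab 12.86 (13.30), and 1700063D05Rik was 8.77 (8.18) on Atm-/- veh 4. The brighter Atm probe was 9.23 (8.82) on Atm-/- NR 2 and Olfr522 4.48 (4.79) on WT NR 2.

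On WT veh 4, Ttr was 18.05 (12.62), Clu 17.75 (17.46) and Pdgfra 11.23 (10.49). Single genes elsewhere were Aim2 at 7.67 (6.48) and Pign at 13.46 (12.81) on WT NR 1, H2-M3 at 8.43 (8.69) on Atm-/- veh 1, Jchain at 6.19 (5.25) on WT veh 3, Sox9 at 12.13 (11.20) on WT NR 3, Nefh at 15.78 (15.47) on WT NR 4 and Tax1bp1 at 12.51 (12.65) on WT NR 2.

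Mean list levels on Atm-/- veh 3, in log2 units from each gene's mean, were 1.31 for interferon-stimulated genes (0.04), 0.75 for senescence (-0.02), 0.45 for cGAS-STING (-0.04), 0.59 for complement (0.15), 0.30 for endothelial (-0.01), 0.18 for antioxidant (0.03) and -0.21 for Purkinje genes (0.01). On WT veh 4 complement genes were at 0.42 (0.09) and Purkinje genes at -0.38 (-0.08). Choroid plexus genes were at -1.21 (-0.35) on Atm-/- veh 1 and blood genes at 0.67 (-0.08) on WT NR 3.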

How the results depend on the processing

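Against 82 called probes, 42 were called on arrays with Y-linked signal, 20 within veh, 20 within NR and 51 to 100 with each array left out. A t-test on the deposited z-scores, 8 arrays against 8, gave 3777 probes at an unadjusted p of 0.05 or less (76 after Benjamini-Hochberg adjustment). The study's rule also sets limits on a z-ratio, a false discovery rate and an ANOVA, so 3777 is not a count by that rule. Against 45 higher, 26 were called with no filter, 17 on arrays with Y-linked signal, 71 with array weights, 2 within veh, 4 within NR and 19 to 61 with 1 array left out. Against 37 lower, 18 were called within veh, 16 within NR and 30 to 49 with 1 array left out. For the interaction, 2 probes against 0 were called on arrays with Y-linked signal. Called genes within 20 Mb of Atm (30) numbered 17 on those arrays, 12 within veh, 11 within NR and 25 to 34 with 1 array left out. Called genes elsewhere (16) numbered 7 on those arrays, 10 with the intensity trend, 26 with array weights, 1 within veh, 0 within NR and 8 to 26 with 1 array left out. The difference in probes above background ran from -758.9 to 270.2. Leaving out WT veh 4 and Atm-/- veh 3 together, chosen after seeing the data, gave 70. The cause was not tested, although subsets hold fewer arrays.

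With the replicate number as a block, 63 probes and 10 genes elsewhere were called. Of 24 same-numbered pairs of arrays, 6 had deviations correlated over 0.1 (median -0.019), and 2 of 16 arrays correlated best with their own number. Same-numbered arrays also lay in the same column of their slides. Weak correlation cannot show that nothing else, such as a litter or a day, was shared.

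Pign (0.33) was -0.22 within NR. Dzip1 (0.00) was -0.00139 at the 75th percentile, -0.044 on arrays with Y-linked signal, -0.015 with array weights, -0.0298 within veh and -0.0362 to 0.05 with 1 array left out. Of the other values of named probes, 2874 kept direction and side of the threshold, 195 lost it and 2 gained it. Slide and scan coincide with genotype, and dim probes near background have the least certain differences.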
